A study of Homo sapiens with 8 samples.

Results

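Messenger RNA levels of 35 genes of homologous recombination, the Fanconi anemia pathway, mismatch repair and the kinases that answer to DNA damage were followed in a human leukemia line in which IGF2BP2 had been lowered and then supplied again. The 35 genes were picked by name as members of these pathways, with earlier results of these data known. Their shares beside those of all genes are therefore a description and not a test of the set. All 35 had a value in the expression table, which lists 35370 genes. All 35 also passed the filter on low values, together with the rest of the 13028 genes tested.

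Homologous recombination repairs a broken DNA molecule by copying from the sister chromatid. The broken ends are cut back to single strands, BRCA1 and BRCA2 with their partners prepare them for strand exchange, and further proteins, some of them motors, help the strands to pair. A complex of BLM, TOP3A, RMI1 and RMI2 then takes the joined molecules apart. The Fanconi pathway handles crosslinks between the strands: its core complex attaches ubiquitin to FANCD2 and FANCI, and recombination completes the repair. Mismatch repair, in which MSH6 recognises mispaired bases, corrects errors of replication. Sister chromatids are present in the S and G2 phases of the cell cycle, and many genes of these pathways are transcribed mainly in dividing cells.

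The cells were MOLM13, an established human acute myeloid leukemia line of monoblastic type. There were 4 groups of 2 libraries, all made from polyadenylated RNA of this line. In the mutant rescue group (labelled IGF2PB2-mut rescue) and the rescue group (labelled IGF2BP2 rescue), the mutated and the unmutated form of IGF2BP2, an RNA-binding protein that binds and stabilises messenger RNAs, served for the rescue. The sources used here do not describe the mutation. The knockdown group is labelled IGF2BP2 knockdown, with a short-hairpin prefix in its titles, and the control group is labelled WT. The cells were infected with virus and, where selection was needed, received puromycin. The labels do not say what virus the control cells received, nor whether the replicates of a group were grown separately. Each p-value therefore reflects how far these libraries scatter, and that scatter may be technical. No batch is labelled.

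Values are log2 normalized expression as the authors deposited them, with all 8 libraries normalized together. They are not scaled to gene length, so levels are compared between groups and not between genes. Differences are in log2 units, and the fold changes printed beside them are on the same scale. A gene was called when its adjusted p, from a two-sided test with limma over all 13028 genes, was under 0.05. Ranges in square brackets are 95% confidence intervals. No read counts were used, so the depth of the libraries is unknown, and each value rests on the number of libraries alone.

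The targeted gene itself followed the labels. IGF2BP2 stood at 11.03 and 10.68 in mutant rescue, 11.37 and 11.13 in rescue, 10.24 and 10.25 in knockdown, and 10.94 and 10.89 in control (log2). Knockdown lay 0.67 below control (SE 0.13, adjusted p = 0.0147). Mutant rescue lay 0.61 above knockdown (adjusted p = 0.0298) and rescue 1.00 above it (adjusted p = 0.00324). All 10 genes looked at as markers of this monoblastic line, among them FLT3, HOXA9, MEIS1 and LYZ, were expressed. Of 8 erythroid and megakaryocytic markers, 0 passed the filter on low values. Of T and NK cell markers 2 of 7 passed, of B cell markers 1 of 6, and of epithelial and stromal markers 4 of 7, with vimentin the highest at 185 to 442 ppm of a library's total. Replicates differed with an SD over all tested genes of 0.303 in mutant rescue, 0.233 in rescue, 0.148 in knockdown and 0.212 in control.

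**Figure D1:**
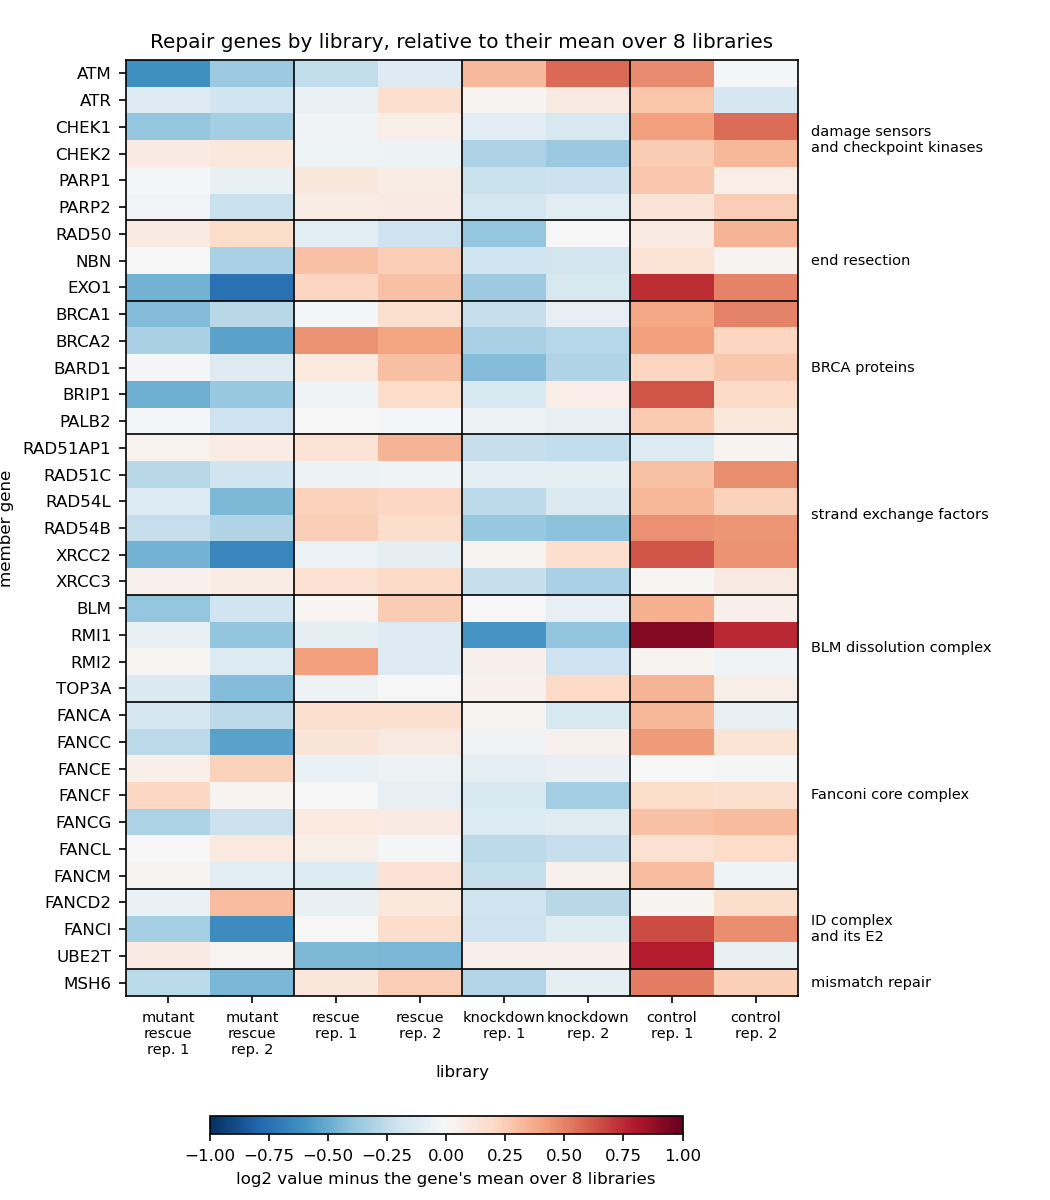
Each row is one of the 35 genes, grouped by role, and each column one library. Colour gives the log2 value minus the gene's mean over the 8 libraries, red for higher and blue for lower, with no value outside the colour range. Most rows are blue in both knockdown libraries and red in both control libraries, RMI1 with the deepest red, while ATM is red in both knockdown libraries.

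Knockdown cells held less mRNA of a large share of the repair genes than control cells. Of the 35 genes, 15 fell and 0 rose (limma), where 7.45% of all tested genes fell and 5.35% rose. The 15 make up 42.9% of the members. The genes that fell came from every role: the kinases CHEK1 and CHEK2, the resection nuclease EXO1, the BRCA proteins BRCA1, BRCA2 and BARD1, the strand exchange factors RAD51C, RAD54L and RAD54B, the dissolution factor RMI1, the Fanconi proteins FANCG, FANCL and FANCI, the mismatch sensor MSH6, and the break sensor PARP1. The falls lay between 0.39 (PARP1) and 1.33 (RMI1) log2 units. At an unadjusted p under 0.05, 23 genes were lower and 0 higher. The share of all tested genes at this unadjusted threshold was not counted, here or in the comparisons below. The unadjusted counts therefore do not tell whether members differ from other genes. Both knockdown libraries lay below both control libraries for 28 genes and above them for 0, against 31.4% and 32.7% of all tested genes. The median difference of the 35 genes was -0.41, and that of all tested genes 0.01. By the adjusted p in the authors' deposited table, 22 of the 35 were lower and 0 higher, where 13.4% of the tested genes were lower and 6.72% higher.

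The count depended on single libraries. It was 8 without either control library, 2 without knockdown replicate 1 and 3 without knockdown replicate 2. In the same fits the share of all tested genes called lower was 4.83% and 1.82% without control replicates 1 and 2, and 0.545% and 0.599% without knockdown replicates 1 and 2. RMI1 and RAD54B were called in each of the 8 fits with 1 library omitted. The median difference stayed between -0.42 and -0.38 in these fits.

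**Figure D2:**
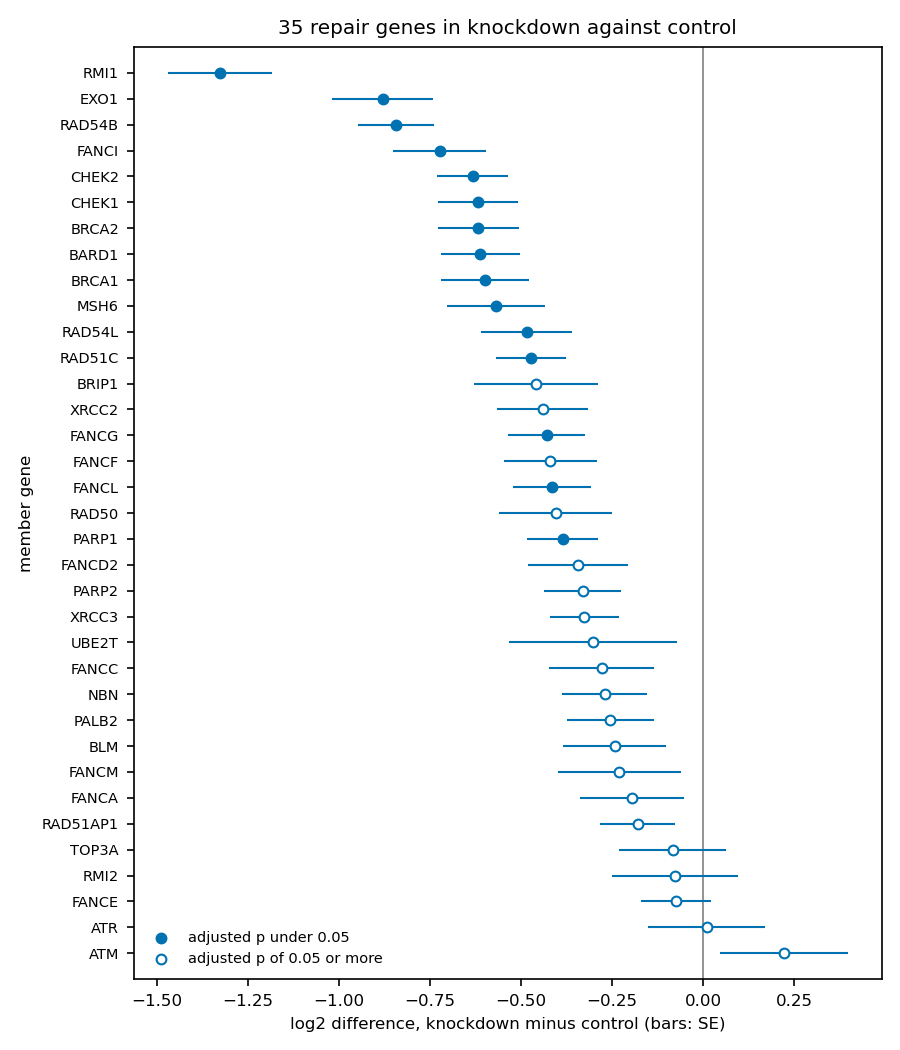
The log2 difference, knockdown minus control, is plotted for the 35 genes in order of size, with bars of 1 standard error. Filled points mark the 15 genes with an adjusted p under 0.05, all left of 0, with RMI1 the farthest left at -1.33 and ATM at the other end at 0.22.

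Among the damage sensors and checkpoint kinases, the effector kinases fell and the apical kinases did not pass the test. CHEK1, the kinase that restrains S phase and mitotic entry after replication stress, had log2 values of 8.40 and 8.35 in knockdown, against 8.92 and 9.06 in control. CHEK2, the kinase activated mainly at double-strand breaks, had 8.74 and 8.68 in knockdown, against 9.30 and 9.38 in control. For both kinases the knockdown libraries lay close together and well below the control libraries. CHEK1 fell by 0.62 (SE 0.11, adjusted p = 0.0106) and CHEK2 by 0.63 (SE 0.10, adjusted p = 0.00599). CHEK2 has 4 copies named after it in the annotation, and how their reads were divided is not known. PARP1, which binds DNA breaks and builds poly(ADP-ribose) chains there, had 12.46 and 12.47 in knockdown, against 12.95 and 12.76 in control. It fell by 0.39 (adjusted p = 0.0353). With the distributions of the libraries evened by quantile normalization, PARP1 was not called (-0.29, limma adjusted p = 0.126). Its relative PARP2 missed the threshold with a difference of -0.33 [-0.57, -0.09] (adjusted p = 0.0746).

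ATM, the kinase upstream of CHEK2, had the highest knockdown mean of any member relative to its control mean, and the groups overlapped. Its log2 values were 9.48 and 9.73 in knockdown, against 9.63 and 9.14 in control. The difference was 0.22 [-0.18, 0.62] (adjusted p = 0.442). ATR, the kinase upstream of CHEK1, differed by 0.01 [-0.36, 0.38]. Its knockdown libraries, at 8.17 and 8.24, lay between its control libraries, at 8.42 and 7.98.

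Of the 3 resection genes, EXO1 fell. This exonuclease, which digests DNA ends and also acts in mismatch repair, had 8.73 and 8.94 in knockdown, against 9.83 and 9.60 in control. The fall of 0.88 (SE 0.14, adjusted p = 0.00668), or 1.84-fold, was exceeded among the members only by that of RMI1. It was called in 7 of the 8 fits that left out 1 library. RAD50 and NBN, parts of the complex that first binds a broken end, differed by -0.41 [-0.76, -0.05] and -0.27 [-0.54, -0.01] and did not pass the test. Another annotated gene, AC116366.3, shares 79.66% of the RAD50 exon bases on the same strand, so its reads may be split.

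Of the 5 genes of the BRCA group, BRCA1, BRCA2 and BARD1 fell. BRCA1 and BARD1 form a ubiquitin ligase that promotes resection and repair by recombination. BRCA1 had 8.55 and 8.69 in knockdown, against 9.16 and 9.28 in control. BARD1 had 9.51 and 9.64 in knockdown, against 10.16 and 10.21 in control. BRCA2, a mediator of recombination, had 10.16 and 10.19 in knockdown, against 10.89 and 10.69 in control. The gap between groups exceeded that between replicates for each of the 3. BRCA1 fell by 0.60 (SE 0.12, adjusted p = 0.0171), BARD1 by 0.61 (SE 0.11, adjusted p = 0.0103) and BRCA2 by 0.62 (SE 0.11, adjusted p = 0.0107). PALB2, which links BRCA1 to BRCA2, differed by -0.26 [-0.53, 0.02]. BRIP1, a helicase that binds BRCA1, differed by -0.46 [-0.85, -0.07] and was not called (adjusted p = 0.116). The SD of its control libraries was 0.31.

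**Figure D3:**
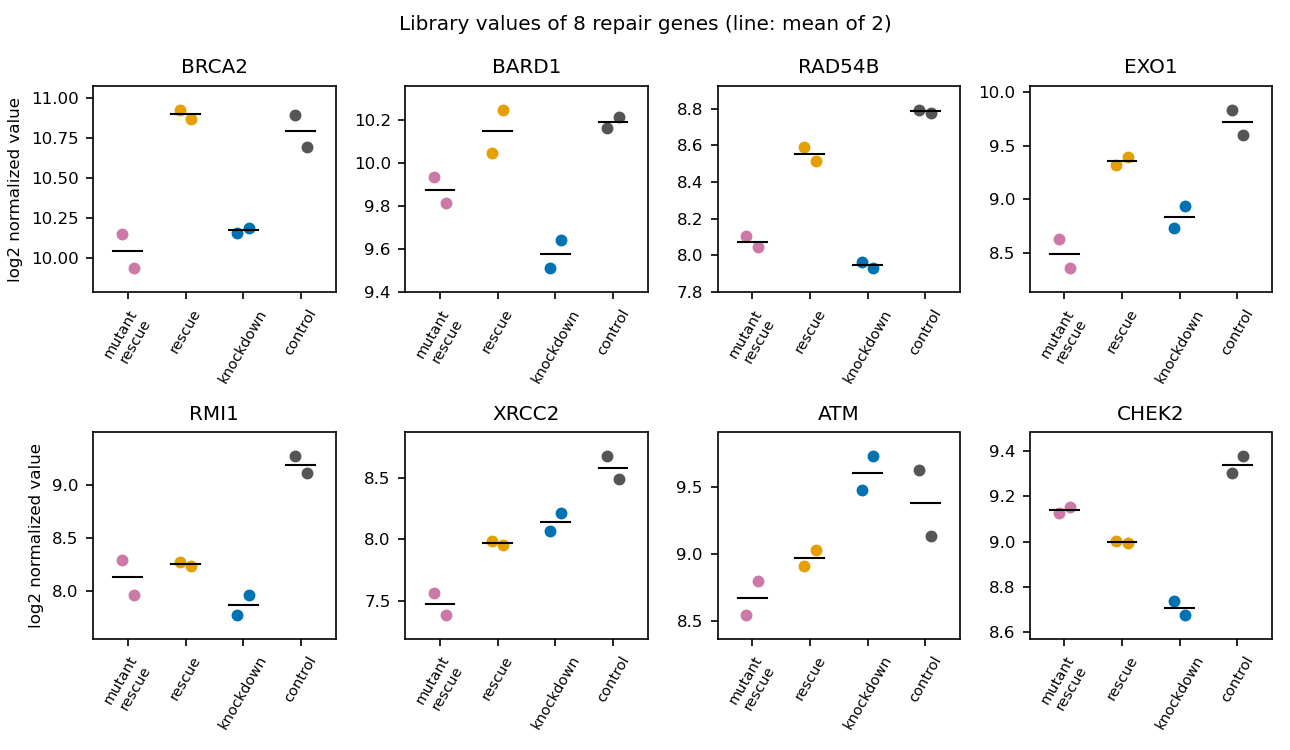
Points are the log2 normalized values of the 2 libraries of each group for 8 genes, and lines are group means. The axes do not start at 0 and differ between panels. BRCA2, RAD54B and EXO1 are high in rescue and control and low in mutant rescue and knockdown, XRCC2 and ATM are lowest in mutant rescue, and RMI1 is high in control only.

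Of the 6 strand exchange factors, the motor proteins RAD54B and RAD54L fell, as did RAD51C, which acts in recombination and crosslink repair. RAD54B had 7.96 and 7.93 in knockdown, against 8.80 and 8.78 in control. The replicates of each group lay much closer together than the groups did. RAD54B fell by 0.84 (SE 0.10, adjusted p = 0.00258), or 1.79-fold. FSBP shares 59.08% of the RAD54B exon bases on the same strand, so reads of these genes may not be separable. RAD54L had 8.887 and 9.001 in knockdown, against 9.48 and 9.378 in control, a fall of 0.49 (adjusted p = 0.0386). Without the filter on low values it was not called (limma adjusted p = 0.0549). RAD51C had 9.85 and 9.85 in knockdown, against 10.24 and 10.41 in control, a fall of 0.47 (adjusted p = 0.018).

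Other genes of this role lay lower without passing the test. XRCC2 and XRCC3, which belong to complexes that promote strand exchange, had differences of -0.44 [-0.73, -0.15] (adjusted p = 0.0546) and -0.33 [-0.54, -0.11] (adjusted p = 0.0566). XRCC3 shares 76.68% of its exon bases with KLC1 on the opposite strand, and whether the counting used strand is not stated. RAD51AP1, a DNA-binding protein that promotes strand pairing, differed by -0.18 [-0.42, 0.06].

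RMI1 fell more than any other member, and the rest of its complex did not pass the test. RMI1, which binds BLM and TOP3A and stabilises the complex, lies at chr9:83980711-84004074 on the plus strand (GRCh38). It had log2 values of 7.77 and 7.96 in knockdown, against 9.27 and 9.11 in control. The lower control library thus stood more than 1 log2 unit above the higher knockdown library. The fall of 1.33 (SE 0.14, adjusted p = 0.00161) corresponds to 2.51-fold on this scale. BLM, the helicase of the complex, differed by -0.24 [-0.56, 0.08], TOP3A, its topoisomerase, by -0.08 [-0.42, 0.25] and RMI2 by -0.08 [-0.47, 0.31]. RMI2 had group means from 5.48 in knockdown to 5.70 in rescue, a low level, at which the deposited values are drawn together. Its rescue libraries, at 5.97 and 5.44, still lay apart.

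Within the Fanconi core complex 2 of 7 genes fell. FANCG, a binding partner of FANCA in the complex, had 8.09 and 8.11 in knockdown, against 8.52 and 8.54 in control, a fall of 0.43 (SE 0.11, adjusted p = 0.033). FANCL, the ubiquitin ligase itself, had 8.01 and 8.05 in knockdown, against 8.43 and 8.46 in control, a fall of 0.41 (SE 0.11, adjusted p = 0.0381). In both genes the replicates of each group lay far closer together than the groups did. The adaptor FANCF differed by -0.42 [-0.71, -0.13] (adjusted p = 0.0643). FANCA, FANCC, FANCE and the DNA translocase FANCM had differences between -0.28 and -0.08, and 0 of these 4 passed. FANCE, like RMI2, lay at a low level, with group means from 5.45 in knockdown to 5.67 in mutant rescue.

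Of the proteins that receive or deliver the ubiquitin, FANCI fell. It had 10.21 and 10.30 in knockdown, against 11.07 and 10.88 in control, a fall of 0.72 (SE 0.13, adjusted p = 0.0104), or 1.65-fold. Its partner FANCD2 differed by -0.34 [-0.66, -0.03] (adjusted p = 0.138) and was not called. UBE2T, the ubiquitin-conjugating enzyme of the pathway, could not be placed: both knockdown libraries, at 8.50, lay between the control libraries, at 9.23 and 8.37. The difference was -0.30 [-0.83, 0.23].

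MSH6, the member from mismatch repair, recognises single mispaired bases. It had 8.98 and 9.18 in knockdown, against 9.78 and 9.51 in control. The groups did not overlap, and the fall was 0.57 (SE 0.13, adjusted p = 0.0286).

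The promoters of the members were searched for letters known to bind regulators that act in dividing cells, and 4 promoters are shown as examples. Of the 15 members called lower in knockdown against control, most had no entry in the RefSeq promoter table (GRCh38.p14) or an annotated exon in the window. RMI1 and EXO1, with the largest falls, were among these. The condition on exons was added after the sequences were seen. The 4 shown are all that remained, so the size of the fall did not select them, and PARP1 had the smallest fall of the 15. Each runs 5′ to 3′ over the 150 bases before the annotated start, CHEK1 at chr11:125626079-125626228 on the plus strand, RAD54L at chr1:46247538-46247687 on the plus strand, RAD51C at chr17:58692423-58692572 on the plus strand and PARP1 at chr1:226408094-226408243 on the minus strand. Capitals mark the CCAAT box, the element bound by the factor NF-Y, which reads ATTGG where it lies on the other strand.
CHEK1: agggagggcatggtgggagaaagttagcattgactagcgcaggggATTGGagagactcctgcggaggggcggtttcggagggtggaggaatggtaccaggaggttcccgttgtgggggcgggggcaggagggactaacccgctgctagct
RAD54L: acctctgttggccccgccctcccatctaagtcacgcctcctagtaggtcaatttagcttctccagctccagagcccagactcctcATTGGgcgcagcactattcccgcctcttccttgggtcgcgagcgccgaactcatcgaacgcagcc
RAD51C: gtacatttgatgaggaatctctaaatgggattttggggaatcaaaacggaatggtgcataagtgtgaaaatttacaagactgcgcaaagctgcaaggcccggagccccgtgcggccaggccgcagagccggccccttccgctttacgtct
PARP1: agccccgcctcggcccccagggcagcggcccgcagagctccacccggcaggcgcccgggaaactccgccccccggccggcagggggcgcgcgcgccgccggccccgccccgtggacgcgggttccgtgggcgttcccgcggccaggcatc

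In CHEK1 the box begins at position -105 from the start and in RAD54L at -65, while the windows of RAD51C and PARP1 hold none of the letters searched. Over the 250 bases before the start, on both strands, 15 of the 31 members with an entry held CCAAT (48.4%), as did 33.0% of 27305 promoters. The box was in 5 of the 13 members that fell in knockdown against control (38.5%) and in 10 of the 18 that were not called (55.6%). The E2F letters TTTCCCGC, TTTGGCGC, TTTCGCGC or TTTGCCGC were in 2 of the 31 (6.5%), against 2.79% of all promoters. The CHR letters TTTGAA, an element of genes that peak late in the cycle, were in 4 (12.9%), against 13.6%. Of the 13 members that fell, 0 held the E2F letters and 0 the CHR letters. None of these strings contains another. A match is a description of the sequence only.

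The rest of the repair network was counted from lists of genes outside the 35. Of 27 other homologous recombination and resection genes tested, 2 fell in knockdown against control and 0 rose, with 7 and 0 at an unadjusted p under 0.05. Among them was POLQ, the polymerase of an alternative end-joining route, which fell by 0.72 (adjusted p = 0.0389). Of 12 other Fanconi genes 3 fell: FANCB of the core complex by 1.13, MAD2L2, a subunit of a translesion polymerase, by 0.56 and USP1, which removes ubiquitin from FANCD2, by 0.66. FANCB lay at a low level, with means of 5.45 in knockdown and 6.58 in control, where the deposited values are drawn together. Its deposited log2 fold change was -3.09. None of the 12 rose, also at an unadjusted p under 0.05 (0 of 12).

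The other mismatch repair genes held more calls. Of 20 genes 11 fell and 0 rose (limma), with 15 and 1 at an unadjusted p under 0.05. RFC3, a subunit of the clamp loader, fell by 1.32, RPA1, which coats single strands, by 1.16 and POLD2, a subunit of a replicative polymerase, by 0.71. RFC3, RPA1 and POLD2 are also parts of the replication machinery.

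In damage sensing and checkpoint genes outside the members, 4 of 22 fell and 1 rose. CDKN1A, an inhibitor of the cell cycle and a target of p53, rose by 0.91 to a mean of 14.13, against 13.22 in control (adjusted p = 0.00169). TIPIN, which stabilises stalled forks, fell by 0.78. In the other repair routes 1 of 11 end-joining genes fell (XRCC6, by 0.39), 3 of 22 base excision genes fell (among them FEN1 by 0.66 and UNG by 0.55) and 0 of 21 nucleotide excision genes fell or rose (limma), with 5 and 1 at an unadjusted p under 0.05. The share of calls was not tested between lists.

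Genes of cell division moved in the same comparison. None of the 35 members is in the lists used here. Some genes of the other repair lists, USP1 among them, are also in the S phase list, so their calls count in both. Of 36 S phase genes 27 fell in knockdown against control and 0 rose, with a median difference of -0.56 and, at an unadjusted p under 0.05, 31 lower and 0 higher. Of 51 G2 and M phase genes 28 fell and 0 rose, with a median of -0.45 and 38 and 0 at the unadjusted threshold. Of 15 monocyte genes 9 rose and 0 fell (limma, with 11 and 0 unadjusted), and the 22 interferon-stimulated genes held 6 that rose and 0 that fell (10 and 0 unadjusted). Their part in the result on repair genes was not tested. In bulk RNA, fewer cells in a phase and less of an mRNA per cell cannot be told apart.

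**Figure D4:**
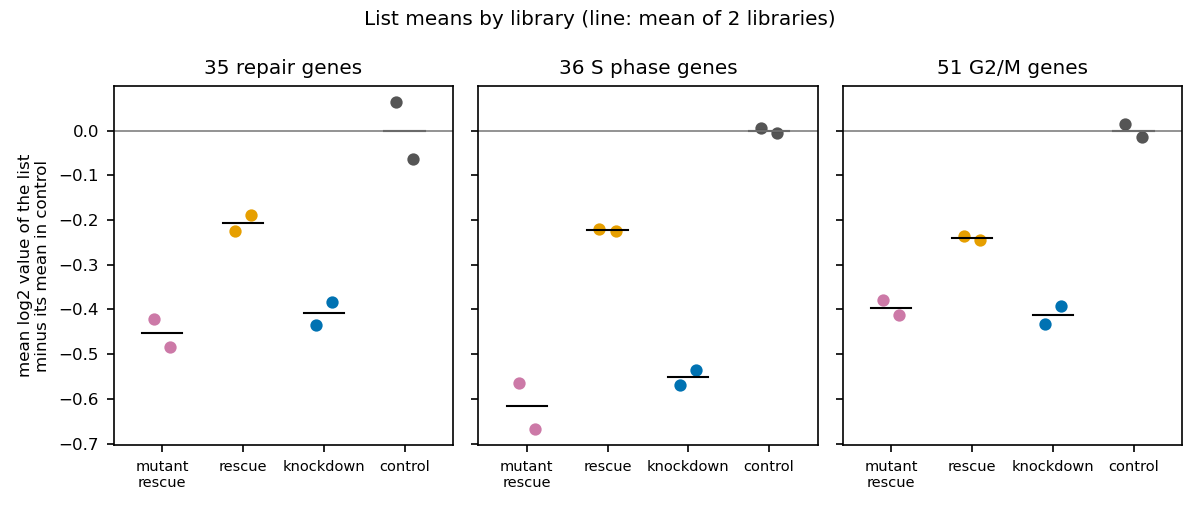
Points are the mean log2 value over the 35 repair genes, 36 S phase genes and 51 G2 and M phase genes in each library, minus the list's mean in control, with lines at group means. In each panel rescue lies between control on one side and mutant rescue and knockdown on the other. For the repair genes the values were -0.42 and -0.49 in mutant rescue, -0.22 and -0.19 in rescue, -0.43 and -0.38 in knockdown, and 0.06 and -0.06 in control.

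Supplying unmutated IGF2BP2 was accompanied by higher mRNA of a few recombination genes. Of the 35 genes, 5 rose in rescue against knockdown and 0 fell (limma), where 3.22% of all tested genes rose and 1.02% fell. With quantile normalization, which evens the distributions of the libraries, those shares were 2.52% and 1.61%, and 3 members rose and 0 fell. At an unadjusted p under 0.05, 13 members were higher and 1 lower. Both rescue libraries lay above both knockdown libraries for 26 members and below for 4, against 31.3% and 26.9% of all genes. By the adjusted p in the authors' deposited table, 9 members were higher and 2, ATM and UBE2T, lower, against 7.04% and 3.08% of the tested genes. The median difference was 0.22, and 0.01 over all genes.

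The 5 genes were BRCA2, BARD1 and the strand exchange factors RAD54B, RAD51AP1 and XRCC3. RAD51AP1 (adjusted p = 0.102) and XRCC3 (adjusted p = 0.0691) were not called with quantile normalization, nor without the filter on low values or with libraries centred on their medians (adjusted p between 0.0583 and 0.0724). BRCA2 stood at 10.92 and 10.87 in rescue, against 10.16 and 10.19 in knockdown, a rise of 0.72 (SE 0.11, adjusted p = 0.00796) or 1.65-fold. BARD1 stood at 10.05 and 10.25 in rescue, against 9.51 and 9.64 in knockdown, a rise of 0.57 (SE 0.11, adjusted p = 0.0232). RAD54B stood at 8.59 and 8.52 in rescue, against 7.96 and 7.93 in knockdown, a rise of 0.61 (SE 0.10, adjusted p = 0.0147). In these 3 genes both rescue libraries lay above both knockdown libraries. RAD51AP1 rose by 0.48 (adjusted p = 0.0401), with 10.74 and 10.94 in rescue against 10.38 and 10.36 in knockdown. XRCC3 rose by 0.45 (adjusted p = 0.0354), with 9.69 and 9.72 in rescue against 9.31 and 9.21 in knockdown.

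The calls rested on both libraries of each group: 0 members were called higher in each of the 4 fits without a rescue or a knockdown library, and 8 in each fit without a mutant rescue library. The share of all tested genes called higher was 1.19% to 1.55% in those 4 fits and 4.59% and 4.61% without mutant rescue replicates 1 and 2. NBN and EXO1 came next, with differences of 0.46 [0.20, 0.73] (adjusted p = 0.0682) and 0.52 [0.20, 0.83] (adjusted p = 0.0782). RMI1 differed by 0.39 [0.06, 0.71] (adjusted p = 0.18). ATM lay lower in rescue, at 8.91 and 9.03, against 9.48 and 9.73 in knockdown, with a difference of -0.63 [-1.03, -0.23] that missed the threshold (adjusted p = 0.0878). UBE2T stood at 7.99 and 7.99 in rescue, against 8.50 and 8.50 in knockdown, with a difference of -0.51 [-1.03, 0.02] that was not called (adjusted p = 0.273). Its SE of 0.23 goes with an SD of 0.61 between its control libraries.

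In the mutant rescue, few members differed from knockdown. Of the 35, 1 rose (CHEK2) and 2 fell (ATM and XRCC2), where 5.58% of all tested genes rose and 5.72% fell. Those shares were 2.91% and 7.18% when libraries were centred on their medians, and CHEK2 was then not called. The members' shares, 2.86% and 5.71%, thus lay near those of all genes. The median difference was -0.04, and 0.05 over all genes. At an unadjusted p under 0.05, 8 members were higher and 6 lower.

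CHEK2 stood at 9.13 and 9.15 in mutant rescue, against 8.74 and 8.68 in knockdown, a rise of 0.43 (SE 0.10, adjusted p = 0.0323). ATM stood at 8.55 and 8.80 in mutant rescue, against 9.48 and 9.73 in knockdown, a fall of 0.93 (SE 0.18, adjusted p = 0.02) or 1.91-fold. XRCC2 stood at 7.57 and 7.39 in mutant rescue, against 8.07 and 8.21 in knockdown, a fall of 0.66 (SE 0.13, adjusted p = 0.0208). The number of calls, among members and among all tested genes alike, changed when 1 library was left out. Over those fits the difference lay between 0.40 and 0.46 for CHEK2, -1.06 and -0.81 for ATM, and -0.75 and -0.57 for XRCC2. BRCA2 differed by -0.13 [-0.38, 0.12] and RAD54B by 0.13 [-0.11, 0.37]. For BARD1 the difference was 0.30 [0.05, 0.54] (adjusted p = 0.0985).

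**Figure D5:**
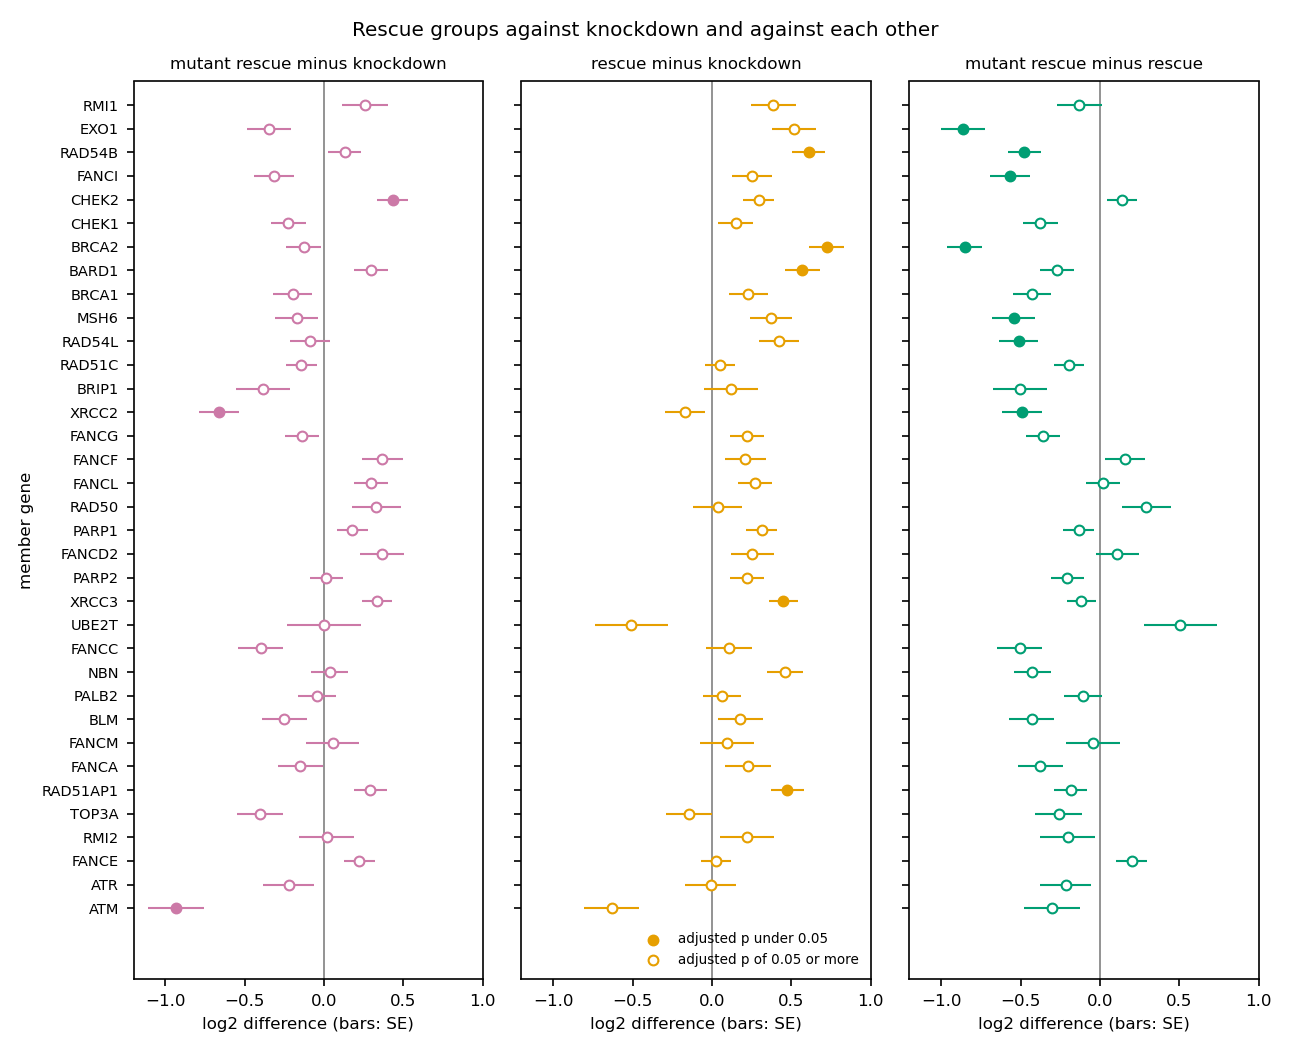
Log2 differences with bars of 1 standard error are shown for the 35 genes in 3 comparisons, ordered as by their difference between knockdown and control. Filled points have an adjusted p under 0.05: CHEK2, XRCC2 and ATM for mutant rescue minus knockdown, 5 genes right of 0 for rescue minus knockdown, and 7 genes left of 0 for mutant rescue minus rescue.

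Set directly against each other, mutant rescue held less mRNA than rescue for 7 members, and 0 were higher (limma). Among all tested genes, 5.90% were lower and 4.61% higher. The 7 make up 20% of the members. At an unadjusted p under 0.05, 16 were lower and 0 higher. Both mutant rescue libraries lay below both rescue libraries for 24 members and above for 5, against 27.7% and 30.2% of all genes. The median difference was -0.26, and 0.02 over all genes. By the adjusted p in the authors' deposited table, 3 members were lower (BRCA2, EXO1 and FANCI), where 3.68% of the tested genes were lower, and 0 were higher, where 3.98% were.

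The largest of these differences were in BRCA2 and EXO1. BRCA2 stood at 10.15 and 9.94 in mutant rescue, against 10.92 and 10.87 in rescue, a fall of 0.85 (SE 0.11, adjusted p = 0.00334) or 1.80-fold. EXO1 stood at 8.62 and 8.36 in mutant rescue, against 9.32 and 9.39 in rescue, a fall of 0.86 (SE 0.14, adjusted p = 0.00876) or 1.82-fold. In both genes the groups were farther apart than the replicates of either group. FANCI fell by 0.57 (adjusted p = 0.0296), with 10.08 and 9.79 in mutant rescue against 10.41 and 10.59 in rescue. MSH6 fell by 0.54 (adjusted p = 0.0386), with 8.999 and 8.813 in mutant rescue against 9.386 and 9.515 in rescue.

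The other 3 were genes of strand exchange. RAD54L had 9.01 and 8.70 in mutant rescue, against 9.38 and 9.36 in rescue, and fell by 0.51 (adjusted p = 0.0382). XRCC2 had 7.57 and 7.39 in mutant rescue, against 7.99 and 7.96 in rescue, and fell by 0.49 (adjusted p = 0.0434). RAD54B had 8.11 and 8.04 in mutant rescue, against 8.59 and 8.52 in rescue, and fell by 0.48 (adjusted p = 0.0263). No library of these 3 genes crossed between the groups. NBN (-0.43, adjusted p = 0.0522), BRCA1 (-0.43, adjusted p = 0.0573) and FANCC (-0.51, adjusted p = 0.0584) narrowly missed the threshold.

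BRCA2 was called in each of the 8 fits that left out 1 library, and EXO1 in 7 of them. The number of members called lower was 2 without rescue replicate 1, 1 without rescue replicate 2, 9 without mutant rescue replicate 1 and 2 without mutant rescue replicate 2. The share of all tested genes called lower in these 4 fits was 3.51%, 1.31%, 9.09% and 3.29%, in the same order. The number was also 2 without either knockdown library, where 2.94% and 2.92% of all tested genes were lower. Fitted on the mutant rescue and rescue libraries alone, it was 1, where 1.13% of all tested genes were lower.

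Knockdown against control and mutant rescue against rescue share no library, although both use the same estimate of spread. Of the 15 members lower in knockdown and the 7 lower in mutant rescue, 6 were on both lists (BRCA2, EXO1, FANCI, MSH6, RAD54L and RAD54B), which is 40% of the first list and 85.7% of the second. Among all tested genes 143 were on both, 14.7% of 970 and 18.6% of 769. XRCC2 was the member called lower in mutant rescue that was not called in knockdown.

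Cell cycle and interferon genes again moved alongside. In mutant rescue against rescue, 14 of 36 S phase genes and 7 of 51 G2 and M phase genes were lower and 0 of either list higher (limma), with 22 and 13 lower and 0 and 2 higher at an unadjusted p under 0.05. In rescue against knockdown, 8 S phase and 3 G2 and M phase genes were higher and 0 lower, with 25 and 16 higher and 0 and 1 lower unadjusted. All 22 interferon-stimulated genes were higher than knockdown in mutant rescue, with a median of 2.69, and in rescue, with a median of 4.80, and all 22 were lower in mutant rescue than in rescue, with a median of -1.94. Monocyte genes held 5 of 15 that were higher in mutant rescue than in rescue, and 0 lower (9 and 1 unadjusted). The part of these genes in the differences between repair genes was not tested.

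The other recombination genes were counted in the same comparisons. Of 27, 6 were lower in mutant rescue than in rescue and 0 higher (limma), with 9 and 1 at an unadjusted p under 0.05. POLQ fell by 0.87, the replication helicase relative MCM9 by 0.81 and RAD51D, another recombination gene, by 0.53. Among the other mismatch repair genes, RFC3 was lower in mutant rescue than in rescue by 0.57, while POLD4, an accessory subunit of the replicative polymerase, was higher by 0.57.

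Rescue did not bring every member to the level of control. In rescue against control 4 members were lower and 0 higher (limma), where 2.27% of all tested genes were lower and 4.91% higher. With quantile normalization those shares were 3.55% and 4.53%, and 5 members were lower. At an unadjusted p under 0.05, 11 members were lower and 1 higher. RMI1 stood at 8.27 and 8.23 in rescue, against 9.27 and 9.11 in control, and was lower by 0.94 (SE 0.14, adjusted p = 0.00534). XRCC2 was lower by 0.61 (adjusted p = 0.0237), CHEK1 by 0.47 (adjusted p = 0.0393) and RAD51C by 0.42 (adjusted p = 0.0363). In these 4 genes both rescue libraries lay below both control libraries. That held for 22 of the 35 members, with 3 lying above. The share of all tested genes is not given for this comparison, so the 22 and 3 have no background here. In the comparisons where that share is given, it lay between 26.9% and 32.7% in either direction. Rescue minus control was 0.11 [-0.15, 0.36] for BRCA2, -0.04 [-0.29, 0.20] for BARD1 and -0.06 [-0.35, 0.23] for RAD54L.

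RMI1 was called in 7 of the 8 fits that left out 1 library. The number of members lower in rescue was 1 without control replicate 1, 2 without control replicate 2, and 1 without any one of the knockdown or rescue libraries. Of all tested genes, 0.967% and 0.622% were lower without control replicates 1 and 2, and 0.391% to 1.02% in the other 4 fits. UBE2T had the lowest values of any group in rescue, with 7.99 in both libraries against 9.23 and 8.37 in control, a difference of -0.81 [-1.34, -0.28] that was not called (adjusted p = 0.0772).

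Many members were also lower in mutant rescue than in control. Of the 35 members 17 were lower and 0 higher (limma), with 21 and 0 at an unadjusted p under 0.05. Among all tested genes 11.0% were lower and 13.9% higher, or 14.5% and 11.0% with libraries centred on their medians, where 19 members were lower. The median difference of the members was -0.35, against -0.41 for knockdown minus control, and 0.01 over all genes. EXO1 was lower by 1.23 (SE 0.14, adjusted p = 0.000771), XRCC2 by 1.10 (SE 0.13, adjusted p = 0.000834), RMI1 by 1.07 (SE 0.14, adjusted p = 0.00159) and FANCI by 1.04 (SE 0.13, adjusted p = 0.00115). These 4 correspond to 2.34-fold, 2.15-fold, 2.10-fold and 2.06-fold lower levels. CHEK1 was lower by 0.84, BRIP1 by 0.84, BRCA1 by 0.80 and BRCA2 by 0.75. MSH6, RAD54B, ATM, FANCC, RAD51C, RAD54L, FANCG, BLM and TOP3A, with differences between -0.74 and -0.49, complete the 17. By the authors' deposited adjusted p, 15 members were lower, where 5.7% of the tested genes were. BLM (0.0728) and TOP3A (0.113) were not. Fitted on the compared groups alone, limma called 14 lower, where 5.59% of all tested genes were. RAD54L (adjusted p = 0.051), BLM (0.0842) and TOP3A (0.105) then missed the threshold.

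The cell division, interferon and monocyte genes differed from control in both rescue groups. In mutant rescue against control, 27 of 36 S phase genes were lower and 0 higher, and 32 of 51 G2 and M phase genes were lower and 1 higher (limma), with 31 and 0 and 36 and 1 at an unadjusted p under 0.05. In rescue against control, 5 S phase genes and 6 G2 and M phase genes were lower and 0 of either list higher, with 12 and 22 lower and 0 higher unadjusted. All 22 interferon-stimulated genes were higher than control in mutant rescue, with a median of 2.94, and in rescue, with a median of 5.05. Of 15 monocyte genes, 11 were higher and 0 lower in mutant rescue than in control, and 8 were higher and 1 lower in rescue. Their part in the differences of the repair genes from control was not tested.

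XRCC2 at chr7:152644779-152676165 (minus strand, GRCh38) had 7.57 and 7.39 in mutant rescue, 7.99 and 7.96 in rescue, 8.07 and 8.21 in knockdown, and 8.67 and 8.49 in control. Mutant rescue thus lay below each of the other groups, with a call in each of the 3 comparisons, while rescue and knockdown differed by -0.17 [-0.46, 0.12]. The call of XRCC2 against rescue was lost by the authors' deposited adjusted p (0.138). Fitted on the compared groups alone, limma called XRCC2 neither against rescue (adjusted p = 0.152) nor against knockdown (adjusted p = 0.0652). ATM at chr11:108222484-108369102 (plus strand) had its highest mean in knockdown and its lowest in mutant rescue. It was lower in mutant rescue than in control by 0.71 (adjusted p = 0.0207), while its difference between mutant rescue and rescue was -0.30 [-0.70, 0.10]. Without control replicate 1, which held the higher ATM value of the control libraries, the number of members lower in mutant rescue than in control was 11, and with either knockdown, rescue or mutant rescue library or control replicate 2 left out it lay between 15 and 18. Of all tested genes, 4.71% were lower without control replicate 1 and 6.03% to 12.0% in the other fits.

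Of the 35 members 12 were called in 0 of the 6 comparisons. They were ATR, PALB2, FANCM, PARP2, FANCA, RMI2, NBN, FANCD2, FANCE, FANCF, RAD50 and UBE2T. For ATR the differences lay between -0.22 and 0.01, with intervals as wide as [-0.59, 0.14], and for PALB2 they lay between -0.30 and 0.06. These intervals leave room for changes of the size seen in called members.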

How the data were processed

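RNA of 8 libraries was analysed, grouped by the sample titles. Per the submitters' processing notes, Trim Galore, kallisto, HOMER and GRCh38 were used, with no role or version given. Per the file headers, the table was written by HOMER's getDiffExpression.pl, and its library columns hold log2 values, which the authors had normalized over the 8 libraries together. The authors also deposited a log2 fold change and a raw and an adjusted p-value per pair of groups. Their model is not described in the sources used here. The header states no option for the way the values of low genes lie close together. A fold change on this scale understates that of low genes. It can also differ from the authors' deposited fold change at higher levels. For knockdown minus control, PARP1, with a control mean of 12.85, had a deposited log2 fold change of -0.508, against -0.386 here. The member median in that comparison was -0.619 by the deposited values and -0.405 here.

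Genes reaching 1 ppm of the summed linear values in 2 or more libraries were kept (13028 of 35370, with 1 row without a symbol left out). A model of 4 group means over all 8 libraries, with 4 residual degrees of freedom, was fitted to the log2 values with limma 3.58.1 in R 4.3.3, with empirical Bayes moderation and a mean trend. The 6 contrasts between groups were tested, with Benjamini-Hochberg adjustment over all genes. The procedure was tested on simulated data. Same-numbered replicates were compared by their deviations from the group means, with correlations from -0.021 (knockdown and control) to 0.414 (rescue and knockdown). Same-numbered libraries of rescue and knockdown thus deviated partly alike. The main model left the replicate numbers out, and a replicate block was run as an alternative.

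The members and the other gene lists were chosen with earlier results of these data known. All members are accounted for, and those called are named with values. Of the other lists, at most 4 called genes per list and contrast are named, those with the smallest adjusted p, except genes that are not reported here. Positions and shared exon bases come from GENCODE v29 (GRCh38), promoters from RefSeq. Alternatives were no filter, a filter at 5 ppm, centring, quantile normalization, no mean trend, only the compared groups, a replicate block, the authors' adjusted p and leaving out each library.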

Additional observations from a re-analysis of the deposited data

How the results depend on the processing

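No member call changed direction under any alternative run. The authors' deposited table gave member medians of -0.508 for mutant rescue minus control, -0.377 for mutant rescue minus rescue, -0.263 for rescue minus control, 0.322 for rescue minus knockdown and -0.619 for knockdown minus control. Its counts were 9 higher and 2 lower for rescue minus knockdown, where 7.04% and 3.08% of all tested genes were. They were 0 higher for mutant rescue minus knockdown (4.37% of all) and 3 lower for mutant rescue minus rescue (3.68%). For rescue minus knockdown, 3 members were higher without a filter, with centring on medians or with quantile normalization. Of all genes in those fits, 2.1%, 2.48% and 2.52% were higher. When those groups were fitted alone, 9 members were higher and 2 lower, where 6.64% and 2.92% of all tested genes were. Fitted alone, mutant rescue minus knockdown gave 0 higher and 1 lower, where 0.944% and 1.2% of all tested genes were. Mutant rescue minus rescue gave 1 lower (1.13% of all) and rescue minus control 2 lower (1.4%). Centring and quantile normalization gave 0 higher for mutant rescue minus knockdown, where 2.91% and 2.01% of all tested genes were higher. Quantile normalization gave medians of 0.160 in rescue and -0.152 in mutant rescue, each minus knockdown, and of -0.400 for mutant rescue minus control, which was -0.406 with centring and -0.487 at 5 ppm, where RMI2 and FANCE drop out. The cause was not tested for the other changes.

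When 1 library was left out, and a lone sample was assumed to vary like the other groups, the number lower lay between 2 and 19 for knockdown minus control, 1 and 9 for mutant rescue minus rescue, 1 and 5 for rescue minus control, 11 and 18 for mutant rescue minus control, 0 and 5 for mutant rescue minus knockdown and 0 and 1 for rescue minus knockdown. The number higher lay between 0 and 8 for rescue minus knockdown, 0 and 2 for mutant rescue minus knockdown and 0 and 1 for mutant rescue minus rescue. The share of all tested genes called changed between these fits too, so these ranges do not set members apart from other genes. Medians lay between -0.107 and 0.055 for mutant rescue minus knockdown and -0.333 and -0.213 for mutant rescue minus rescue. They lay between -0.242 and -0.122 for rescue minus control and -0.548 and -0.3 for mutant rescue minus control.

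The replicate numbers mark no pairing in the labels. With the replicate block 15 members were lower for knockdown minus control, where 7.68% of all tested genes were. For mutant rescue minus knockdown 1 was higher and 2 lower, where 7.31% and 6.52% of all were. For rescue minus knockdown 5 were higher (3.33% of all), and for mutant rescue minus rescue 10 were lower (6.92%). For rescue minus control 5 were lower (2.39%), and for mutant rescue minus control 17 (11.8%). With 2 libraries a group and no counts, differences of the size of most members lie near what can be called.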
